A study of Homo sapiens with 4 samples.

Results

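S100 genes encode small calcium-binding proteins. The 10 genes described here are S100A2, S100A4, S100A6, S100A8, S100A9, S100A10, S100A11, S100A13, S100A14 and S100A16, found by their gene symbol among 62696 gene rows, 1 row for each. They were measured by total RNA sequencing in OVCAR3, an established line of high-grade serous ovarian carcinoma cells. The groups were OVCAR3 cells with a short hairpin RNA against the pseudogene transcript ANAPC1P2 (KD, 3 libraries, sets 1, 2 and 3 in the labels) and OVCAR3 cells called wild type (WT, 1 library). The labels do not say whether the 3 sets are separate cultures, hairpins or preparations. Each p-value sets a difference from WT against the scatter among the 3 KD libraries, and that scatter may be technical. No library with a non-targeting hairpin was analysed here, so carrying a hairpin and losing ANAPC1P2 cannot be told apart.

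S100 proteins pair up and, when calcium binds their EF-hands, expose a surface that grips other proteins. Inside cells they act on annexins, myosin and other targets. Some are released and act on receptors such as AGER and TLR4. In carcinomas several of them are studied as markers of invasion or of squamous differentiation, while S100A8 and S100A9 are best known as abundant proteins of neutrophils and monocytes.

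Values are normalized read counts as deposited, which are whole reads divided by 1 factor per library. In all genes together, 48443589, 56216398 and 42871815 reads were counted in KD 1, 2 and 3, against 27868718 in WT. The targeted transcript, ANAPC1P2, was counted 0, 11 and 8 times in KD 1, 2 and 3 and 14 times in WT. The WT library stood apart from the others: it had reads in 36832 genes, against 31014 to 32823 in the KD libraries, and it held erythroid transcripts, with a summed count of 1.55 to 3.79 in the KD libraries and 14867 in WT. HBB, HBA1, HBA2, SLC4A1 and AHSP had no read in any KD library. All 17 listed markers of ovarian serous carcinoma and epithelium were detected in all 4 libraries. In KD 11 were higher and 4 lower, where 45.9% and 24.7% of tested protein-coding genes were called. MUC16 had 26757, 35345 and 24678 counts in KD and 458890 in WT. PAX8 had 18322, 19970 and 21361 in KD and 62685 in WT, while EPCAM and KRT8 were among the 11 that rose. Whether both groups hold the same cells was not tested. Of 9 tested mesenchymal markers 5 were lower in KD, beside the share of 24.7% above, 4 were not called and none was higher. ZEB1 had no read in KD and 84 in WT. It reached the mean of 10 counts required for a test only through WT, so it could not come out higher. COL3A1 had no read in KD and 14 in WT, too few to test. Each S100 difference below compares the libraries as labelled, and the part of other cells' RNA in it was not tested. In bulk RNA, fewer cells of a type and less RNA per cell cannot be told apart.

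Except for 2 genes, the members lie in 1 block of chromosome 1q21 (GENCODE 29, GRCh38), from S100A9 at chr1:153357854-153361027 on the plus strand to S100A13 at chr1:153618787-153631360 on the minus strand. S100A10 (chr1:151982915-151994390) and S100A11 (chr1:152032506-152047907), both on the minus strand, lie apart from it, with the fused-type S100 genes such as FLG in between. The stretches below show the DNA from 40 to 11 bases before a transcript start of 9 members (RefSeq, GRCh38.p14, read on the gene's strand), because this is where the family differs in core promoter type. Capitals mark TATAA, the core of the TATA box. For genes with several listed starts, the start with TATAA is shown, or else the first listed.
S100A2 (chr1:153565855-153565884, minus strand): atgtcatgagaatgaggcctggcaccagtc
S100A4 (chr1:153545817-153545846, minus strand): tggctggggTATAAataggtcagacctctg
S100A6 (chr1:153536002-153536031, minus strand): caccgaccgcTATAAggccagtcggactgc
S100A8 (chr1:153391084-153391113, minus strand): agcctaaccgcTATAAaaaggagctgcctc
S100A9 (chr1:153357814-153357843, plus strand): caggagctgccTATAAatgccgagcctgca
S100A11 (chr1:152037015-152037044, minus strand): gtaaggcttgggcaaggctgggccgggaag
S100A13 (chr1:153627516-153627545, minus strand): tccccgctgctTATAAacctcagccctgag
S100A14 (chr1:153616336-153616365, minus strand): cttcccccaggTATAAgagctgagctcagg
S100A16 (chr1:153613148-153613177, minus strand): gtgtatccctttaacaagggcccaacccca

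All 10 members matched the promoter table, with 16 starts. On the gene's own strand, TATAA began 20 to 40 bases before 6 of the 16 starts (37.5%), against 3.91% of all 35116 promoters. These 6 starts belong to 1 member each, S100A4, S100A6 and S100A14, which rose in KD, and S100A8, S100A9 and S100A13, which did not. CpG dinucleotides were dense in S100A6 and S100A10 (24 each in the 250 bases before the start) and in S100A11 and the first start of S100A13 (15 each), while no start of the other 6 members had more than 7. At least 10 were found at 5 of the 16 starts, against 52.2% of all promoters. The AP-1 motif TGANTCA, searched on both strands of these 250 bases, was found in S100A2 alone, at 1 of the 16 starts (6.25%), against 6.57% of all promoters. The E-box CACCTG, searched likewise, was found at 8 of the 16 starts, against 17.5% of all promoters. These starts belong to S100A2, S100A4, S100A9, S100A14 and S100A16 and, with 3 neighbouring starts that share sequence, to S100A8. These are descriptions of letters, not of bound sites.

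Of the 10 members, 7 rose in KD, 1 fell and 2 were not called (limma on log2 of the count plus 1, Benjamini-Hochberg adjusted p under 0.05 over 23344 genes). Across all genes tested, 31.4% were called higher and 36.3% lower, and across the protein-coding ones 45.9% and 24.7%, so calls were frequent everywhere and the count by itself says little about the family. The median log2 difference was 1.69 over the members, against 0.28 over tested protein-coding genes and -0.28 over all tested genes. With equal library totals in place of the deposited scaling, each gene moved down by a median of 0.56, the calls over all genes became 20.3% higher and 53.6% lower, and the members' median became 1.13. Then 7 members were called higher, the same ones, and 3 lower. By edgeR 7 members were higher and 2 lower, against 34.2% and 36.5% of all genes, and by DESeq2 7 and 1, against 33.6% and 25.8%. All 3 KD libraries lay above WT for 7 members, as they did for 40.0% of all tested genes, and below WT for 2, as for 52.2%. With equal library totals these were 7 members, against 26.9% of all genes, and 3 members, against 67.0%.

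**Figure D1:**
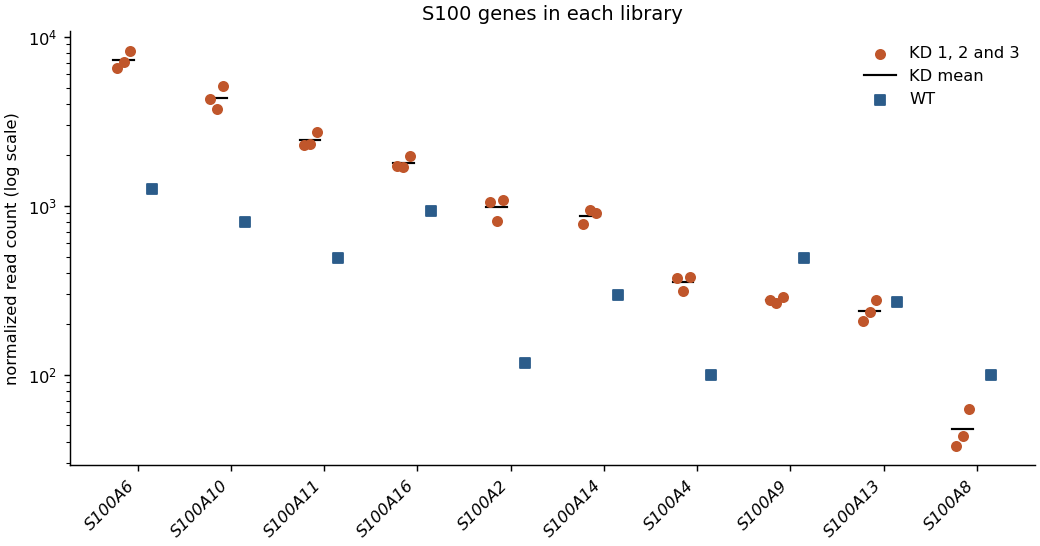
Normalized read count (log axis) of each S100 gene in KD 1, 2 and 3 (circles, left to right, with a bar at their mean) and WT (square). The KD libraries lie above WT for 7 genes, below it for S100A8 and S100A9, and on both sides of it for S100A13.

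The abundant members S100A6, S100A10 and S100A11 all rose. S100A6 (calcyclin), which binds annexins and the ubiquitin ligase adaptor CACYBP, had 6563, 7129 and 8238 counts in KD 1, 2 and 3 and 1262 in WT. The lowest KD library was thus far above WT, and the log2 difference was 2.53 ± 0.14 (SE, adjusted p = 6.57e-05, limma), or 5.79-fold. S100A10, which has lost calcium binding and forms a complex with annexin A2 at the plasma membrane, had 4282, 3726 and 5079 counts in KD and 796 in WT. KD 2 was the lowest and KD 3 the highest, and the groups did not overlap (log2 difference 2.44 ± 0.17, adjusted p = 8.67e-05, limma). S100A11, a partner of annexin A1, had 2297, 2323 and 2740 counts in KD and 489 in WT, a log2 difference of 2.32 ± 0.13 (adjusted p = 6.57e-05, limma). The fold was 5.48 for S100A10 and 5.02 for S100A11, with 95% counting intervals of the pooled reads of 4.83 to 5.99 and 4.34 to 5.72. Relative to S100A6 in the same library, a measure that no scaling changes, S100A10 stood at 65.3%, 52.3% and 61.7% in KD 1, 2 and 3 and at 63.1% in WT. S100A11 stood at 35.0%, 32.6% and 33.3% of S100A6 in KD and at 38.7% in WT, so the proportions among these genes differed little between the groups.

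S100A2 had the largest fold of the 10 members. It is a largely nuclear protein of stratified epithelia that binds p53. It had 1055, 815 and 1074 counts in KD and 117 in WT, a log2 difference of 3.05 ± 0.19 (adjusted p = 7.03e-05, limma). KD 2 was the lowest, and the groups did not overlap. The fold of 8.41 rests on 105 WT reads, with a counting interval of 6.23 to 11. In each KD library S100A2 stood at 61.6%, 48.3% and 54.3% of S100A16, a neighbouring family member, against 12.5% in WT. The limma interval of S100A2 (2.60 to 3.50) overlaps that of S100A6 (2.19 to 2.86), and the difference between the members was not tested.

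Squamous markers, which often accompany S100A2, were partly present. Of 5 tested markers 4 rose in KD and none was called lower, where 45.9% of tested protein-coding genes were called higher. The 4 include KRT6B, which had 4 reads in WT and reached the mean of 10 counts required for a test only through KD. The median log2 difference of the tested markers was 0.99, and 0.44 with equal library totals. Over protein-coding genes it was 0.28 and -0.28. CSTA had 550, 518 and 671 counts in KD and 15.6 in WT, and KRT6A had 371, 288 and 445 counts in KD and 202 in WT. TP63, a regulator of stratified epithelia, stood at 91.0, 83.1 and 109 in KD and 46.6 in WT. The basal keratin KRT5 had 188, 101 and 241 counts in KD and 278 in WT and was below WT in all KD libraries without a call (log2 difference -0.74, adjusted p = 0.187, limma). KRT14 and KRT16 had at most 2 reads in a KD library and 6 reads each in WT. The terminal differentiation markers KRT13, IVL, SPRR1B and SPRR3 had no read in any of the 4 libraries.

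S100A4, which binds non-muscle myosin heavy chain (MYH9) and is linked to cell motility, had 373, 314 and 379 counts in KD and 98.9 in WT. Its log2 difference was 1.83 ± 0.19 (adjusted p = 3.35e-04, limma), or 3.60-fold, with 89 WT reads and a counting interval of 2.60 to 4.88. All KD libraries were above WT. Its target gene MYH9 moved the other way, with 9816, 12006 and 13075 counts in KD and 20473 in WT (log2 difference -0.83, adjusted p = 0.00588, limma, or 0.0843 with no filter on low genes). S100A4 is often used as a mesenchymal marker. Among 9 tested mesenchymal markers 5 were lower in KD and 4 were not called, where 24.7% of tested protein-coding genes were called lower. The 5 include ZEB1, which had no read in KD and passed the filter on low genes only through WT. VIM was lower, at 738, 678 and 774 counts in KD and 2326 in WT. FN1 had 7123, 6644 and 12647 counts in KD and 8860 in WT, without a call (adjusted p = 0.859, limma).

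The epithelial members S100A14 and S100A16, which are adjacent on the chromosome, rose by less. S100A14 had 776, 936 and 905 counts in KD and 295 in WT, a log2 difference of 1.55 ± 0.15 (adjusted p = 2.30e-04, limma). S100A16 had 1714, 1689 and 1978 counts in KD and 931 in WT, a log2 difference of 0.94 ± 0.13 (adjusted p = 9.20e-04, limma). Neither gene overlapped between groups. With equal library totals the difference of S100A16 shrank to 0.38 and stayed called (adjusted p = 0.0135, limma).

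**Figure D2:**
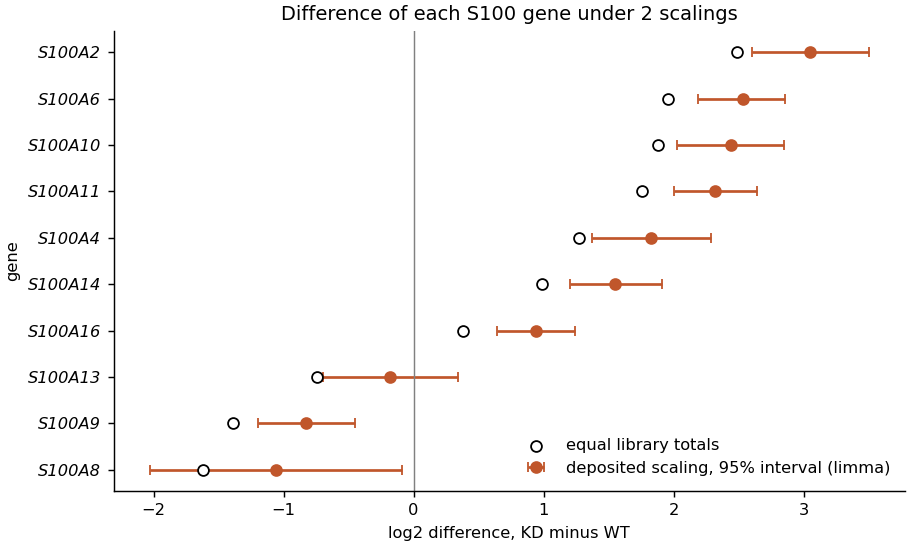
Log2 difference (KD minus WT) of each S100 gene with the deposited scaling (filled circles, bars are 95% limma intervals) and with equal library totals (open circles). The 7 genes from S100A2 down to S100A16 are above 0 under both, and S100A13, S100A9 and S100A8 are below 0 under both.

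Of the calgranulin genes S100A8 and S100A9, whose proteins form calprotectin, S100A9 fell in KD, and S100A8 lay below WT in all KD libraries without passing the test. S100A9 had 275, 267 and 289 counts in KD and 492 in WT. The KD libraries differed from each other by little, and all were below WT (log2 difference -0.83 ± 0.16, adjusted p = 0.00396, limma). It was thus 1.78-fold lower, with a counting interval of 1.52 to 2.10. S100A8 had 37.9, 43.5 and 62.3 counts in KD and 98.9 in WT, from 40, 56 and 56 reads in KD and 89 in WT. KD 3 was the nearest to WT, and the log2 difference of -1.06 (95% interval -2.03 to -0.09) missed the threshold with an adjusted p of 0.0529 (limma). It passed with equal library totals (-1.62, adjusted p = 0.0130, limma). S100A8 stood at 13.8%, 16.3% and 21.5% of S100A9 in KD and at 20.1% in WT, so WT lay within the KD range of this ratio.

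Most tested neutrophil markers were lower in KD, as S100A9 was, but by a larger fold. The summed count of 16 neutrophil markers, S100A12 among them, was 89.1, 89.4 and 77.8 in KD 1, 2 and 3 and 1126 in WT. Among the 7 that could be tested 6 were lower in KD, where 24.7% of tested protein-coding genes were called lower. The other, LTF, had 45.5, 42.0 and 35.6 counts in KD and 35.5 in WT and was not called. Of the lower markers, all but CSF3R reached the mean of 10 counts required for a test only through WT. They could not come out higher, so their count cannot be set against the share of 24.7%. FCGR3B, CXCR1, ITGAM, CEACAM8 and ELANE had no read in any KD library, while FCGR3B had 217 counts and CSF3R 485 counts in WT. The granule gene ELANE was also at 0 in WT, and MPO stood at 2.22 there. Of 7 tested monocyte and macrophage markers 6 were lower in KD, beside the same share of 24.7%, and VCAN was higher. The 6 include LYZ, which had no read in KD and was tested only through its WT counts. The third calgranulin gene, S100A12, which neutrophils also make, was counted 10, 6 and 6 times in KD and 4 times in WT, too few to test. The part of neutrophil RNA in the calgranulin difference was not tested.

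S100A13, which takes part in the export of FGF1 and interleukin 1 alpha, was not called. It had 207, 235 and 276 counts in KD and 269 in WT, so that WT lay within the KD range. The log2 difference was -0.18 with a 95% interval of -0.70 to 0.34 (adjusted p = 0.480, limma). With equal library totals it was -0.74 and called lower (adjusted p = 0.0194, limma), so its call depends on the scaling. S100A13 and S100A1 lie on opposite strands and share 235 bases of exons, and a noncoding gene on the strand of S100A13 covers 24.2% of its exonic bases. The library kit marks strand, but no source used here gives the strand setting of the counting, so reads in shared exons are uncertain. Of the genes of this export route, SYT1 fell in KD. IL1A had 57.8, 31.9 and 44.5 counts in KD and 55.5 in WT (adjusted p = 0.509, limma), and FGF1 had 10 reads over the KD libraries together and 22 in WT, too few to test. SYT1 had 55.9, 39.6 and 44.5 counts in KD and 442 in WT (log2 difference -3.23, adjusted p = 2.73e-04, limma).

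The make-up of the family can be read without any scaling as each gene's share of the members' summed count in a library. S100A6 held 37.3%, 40.8% and 39.2% in KD and 26% in WT, and S100A10 held 24.4%, 21.3% and 24.2% in KD and 16.4% in WT. S100A9 held 1.56%, 1.53% and 1.38% in KD and 10.1% in WT. S100A16 held 9.75%, 9.67% and 9.41% in KD and 19.2% in WT, so its share was lower in KD although its own count was higher. S100A4 held 2.12%, 1.80% and 1.80% in KD and 2.04% in WT. The 10 members together had 383, 400.1 and 441 RPM, which is reads scaled to equal library totals, in KD and 157 RPM in WT.

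Between genes, levels can be compared only per length of exon. In counts per kb of exon averaged over the KD libraries, the order was S100A6 (7530), S100A11 (3610), S100A10 (2830), S100A16 (1050), S100A14 (683), S100A2 (626), S100A9 (480), S100A4 (347), S100A13 (108) and S100A8 (47.6). S100A14 and S100A2 overlapped between libraries, at 608 to 733 and 520 to 685, and did not differ beyond their spread, while all other neighbours in this order kept apart. In WT, where no spread is known, S100A6 (1300) was followed by S100A9 (853), S100A11 (719), S100A16 (547), S100A10 (516), S100A14 (231), S100A13 (121), S100A8 (98.3), S100A4 (96.4) and S100A2 (74.4). S100A2 was the lowest member in WT. Among protein-coding genes ordered by counts per kb, S100A6 held rank 190, 156 and 148 in KD and 589 in WT, and S100A9 held rank 4292, 4247 and 4274 in KD and 1213 in WT.

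Within the KD group, the members' coefficient of variation ran from 4.11% (S100A9) to 26.6% (S100A8). On the deposited scale KD 3 was the highest of the 3 libraries for 9 members, and KD 2 for S100A14. With equal library totals KD 3 was the highest for 6.

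Most other S100 genes were rarer than the members, and S100B stood out in the wider family. S100B, a marker of glial cells and melanocytes, was read 2, 6 and 2 times in KD and 274 times in WT, or 1.90, 4.66 and 2.22 counts in KD and 304 in WT. The pooled KD rate was 98.6-fold lower, with a counting interval of 41.3 to 309 (log2 difference -6.35, adjusted p = 3.44e-04, limma). Glial and melanocyte markers were mixed: 4 of 7 tested were lower in KD, a count that holds S100B itself, and 2 were not called. Over tested protein-coding genes 24.7% were called lower. Among the lower markers SOX10 had 9.48, 3.11 and 2.22 counts in KD and 859.7 in WT. MLANA, also lower, kept 145, 145 and 82.3 counts in KD, against 671 in WT. The lower markers other than MLANA reached the mean of 10 counts required for a test only through WT. They could thus not come out higher. MBP, of the same list, was higher in KD. The part of glial or melanocyte RNA in the S100B difference was not tested.

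S100A1, known from heart muscle, was the only other abundant member of the wider family, with 466, 559 and 677 counts in KD and 664 in WT. Its log2 difference of -0.24 (95% interval -0.75 to 0.26) was not called (adjusted p = 0.330, limma), but with equal library totals it was -0.81 (adjusted p = 0.0139). S100A13 stood at 44.3%, 42.0% and 40.7% of S100A1 in KD and at 40.5% in WT. S100A3 was read 10, 18 and 22 times in KD and 9 times in WT (adjusted p = 0.507, limma). S100A5 was read 6, 10 and 12 times in KD and 12 times in WT (adjusted p = 0.458, limma). Neither was called. S100Z had 12 reads over the KD libraries together and 24 in WT. S100G had 8 in KD and 6 in WT, and S100P had 7 in KD and 4 in WT. S100A7, S100A7A and S100A7L2, which belong to inflamed and differentiating skin, had no read in any library.

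The fused-type S100 genes, large proteins of the outer skin that begin with an S100 domain, moved apart from each other. FLG (filaggrin) had 32679, 37701 and 35908.5 counts in KD and 10519 in WT (log2 difference 1.75, adjusted p = 1.13e-04, limma). HRNR (hornerin) had 58.8, 79.3 and 53.4 counts in KD and 823 in WT (log2 difference -3.69, adjusted p = 1.29e-04), and FLG2 had 48.3, 40.4 and 15.6 counts in KD and 341 in WT (log2 difference -3.40, adjusted p = 0.00389). These genes hold long internal repeats, so reads shared between repeats or genes are uncertain. TCHH was not called, and RPTN and CRNN were too low to test.

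Of 26 listed 1q21 neighbours 13 could be tested, of which 3 rose, 3 fell and 7 were not called. Over tested protein-coding genes 45.9% were called higher and 24.7% lower, so these counts by themselves say little about the region. Past the end of the S100 block, CHTOP had 3970, 3802 and 4020 counts in KD and 4103 in WT, with no call (adjusted p = 0.572, limma). The next genes SNAPIN and ILF2 rose, with log2 differences of 1.90 and 2.21, and NPR1 had a log2 difference of -0.64 (adjusted p = 0.0194). INTS3, SLC27A3, GATAD2B and CRTC2, and THEM4 at the other end, lay between -0.14 and 0.16 and were not called. Higher, lower and uncalled genes thus stood next to each other along the chromosome.

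**Figure D3:**
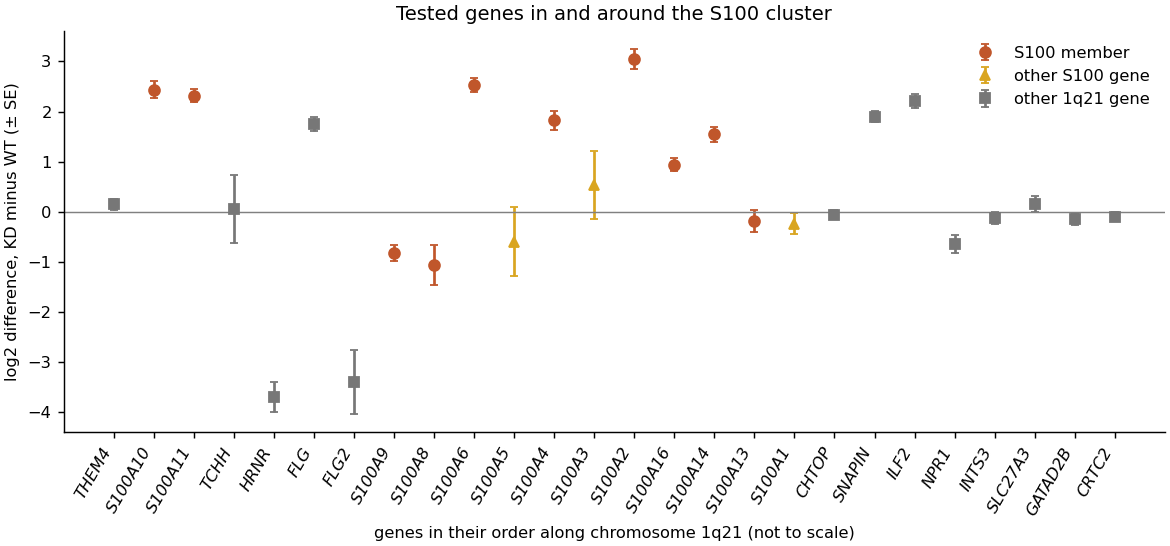
Log2 difference (KD minus WT, bars ± SE) of the tested S100 members, other S100 genes and other listed 1q21 genes, in chromosome order and not to scale. S100A9 and S100A8 lie below 0 beside S100A6 at 2.53, and HRNR and FLG2 lie far below 0 on both sides of FLG at 1.75.

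S100 transcripts are short, and shorter genes tended to be higher in KD. The median log2 difference was 0.86 over 206 tested protein-coding genes with under 1 kb of exon, 0.87 over 1104 genes of 1 to 2 kb, 0.58 over 3980 genes of 2 to 4 kb and 0.14 over 9174 longer genes. Among genes under 1 kb, 51.5% were called higher and 21.4% lower, with quartiles at -1.43 and 2.34. S100A6 and S100A11 fall in that class, at 2.53 and 2.32, as does S100A9 at -0.83. Among genes of 1 to 2 kb, 55.2% were called higher and 16% lower, with quartiles at -0.61 and 1.72. S100A2, S100A4 and S100A10 were above the upper quartile of this class, S100A14 and S100A16 between its median and upper quartile, and S100A8 below its lower quartile. The part of transcript length in the members' differences was not tested.

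**Figure D4:**
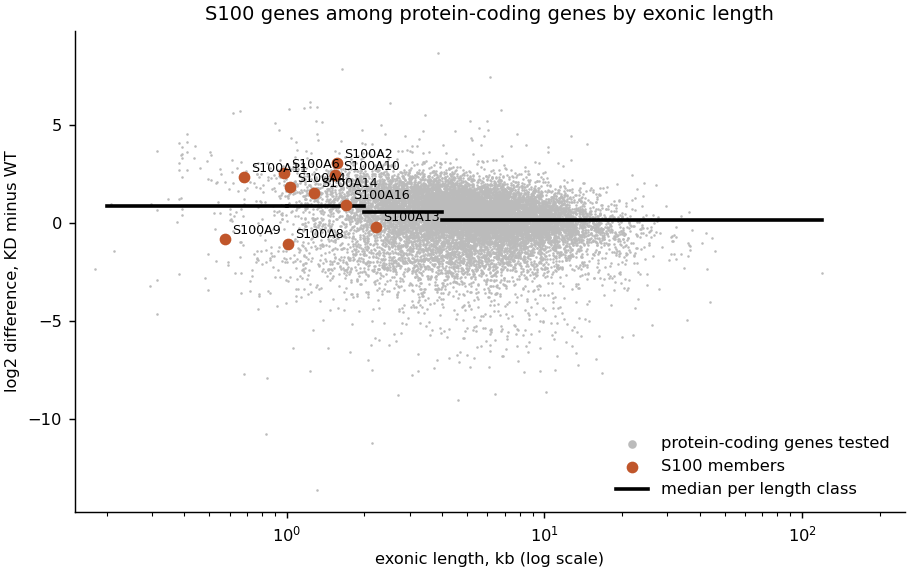
Log2 difference (KD minus WT) against exonic length (log axis, kb) of tested protein-coding genes (grey) and the 10 S100 members (coloured, named). Bars mark the median in each length class, 0.86 and 0.87 in the classes below 2 kb. Of the members, 7 lie above the median of their class and 3 below it.

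Binding partners, targets and receptors of S100 proteins were also followed. Of 28 listed genes 27 were tested, of which 12 rose, 8 fell and 7 were not called. Over tested protein-coding genes 45.9% were called higher and 24.7% lower, so these counts by themselves say little about the list. The partners' median log2 difference was 0.27. With equal library totals this median was -0.29, against 0.28 and -0.28 over protein-coding genes under the same scalings, so the list as a whole lay near them. The balance of calls turned with the scaling, since 8 partners were higher and 12 lower with equal library totals. Over all tested genes 20.3% were called higher and 53.6% lower in that setting.

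ANXA1, ANXA2 and ANXA5 rose in KD, while 2 other listed annexins were not called. ANXA2, the partner of S100A10, had 96590, 79710.0 and 91393 counts in KD and 19697 in WT (log2 difference 2.17, adjusted p = 1.25e-04, limma). S100A10 stood at 4.43%, 4.67% and 5.56% of ANXA2 in KD and at 4.04% in WT. ANXA1, the partner of S100A11, had 24219, 20242 and 23324 counts in KD and 3161 in WT (log2 difference 2.83, adjusted p = 6.57e-05, limma). S100A11 stood at 9.48%, 11.5% and 11.7% of ANXA1 in KD and at 15.5% in WT, so ANXA1 differed by more than S100A11. ANXA5 rose 4.82-fold. ANXA11 was not called (log2 difference 0.16, adjusted p = 0.207, limma), and its sign turned with equal library totals, to -0.41. ANXA6 had 199, 310.1 and 369 counts in KD and 488 in WT, all KD libraries below WT, and missed the threshold (log2 difference -0.78, adjusted p = 0.0742, limma). It was called lower with equal library totals (adjusted p = 0.0148, limma) and by edgeR (adjusted p = 0.0280). AHNAK, a giant scaffold bound by the S100A10 and annexin A2 complex, fell to 48733, 55460 and 52909 counts in KD, against 169521 in WT (log2 difference -1.70, adjusted p = 2.66e-04, limma).

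Among intracellular targets, CACYBP, named for its binding to calcyclin, had 10760, 8626 and 10584 counts in KD and 1565 in WT (log2 difference 2.67, adjusted p = 6.57e-05, limma). S100A6 stood at 61.0%, 82.6% and 77.8% of CACYBP in KD and at 80.6% in WT. The chaperone gene HSP90AA1 rose 4.82-fold and its cofactor FKBP4 2.40-fold. PLAT, the plasminogen activator that S100A10 binds at the cell surface, had 207, 291 and 298 counts in KD and 867 in WT (log2 difference -1.73, adjusted p = 1.09e-03, limma).

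Of the receptors for released S100 proteins, TLR4 and AGER had low counts and fell in KD. CD36 had low counts without a call, and BSG had high counts. TLR4, a receptor for calprotectin, had no read in any KD library and 98.9 counts in WT, from 89 reads. It was at least 42.1-fold lower in KD by the lower end of the counting interval of read pairs. TLR4 reached the mean of 10 counts required for a test only through WT, so it could not come out higher. AGER, the RAGE receptor, had 15.2, 40.4 and 24.5 counts in KD and 111 in WT (log2 difference -2.12, adjusted p = 0.0180, limma, or 0.121 with no filter). Both are also expressed by leukocytes, whose markers were lower in KD, and the part of these cells was not tested. BSG, another calprotectin receptor, had 5890, 6119 and 6534 counts in KD and 5222 in WT, a log2 difference of 0.24 that missed the threshold (adjusted p = 0.0767, limma). Its difference was -0.32 with equal library totals, so its sign depends on the scaling. CD36 had 65.4, 98.7 and 55.6 counts in KD and 58.9 in WT (log2 difference 0.27, adjusted p = 0.574, limma).

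**Figure D5:**
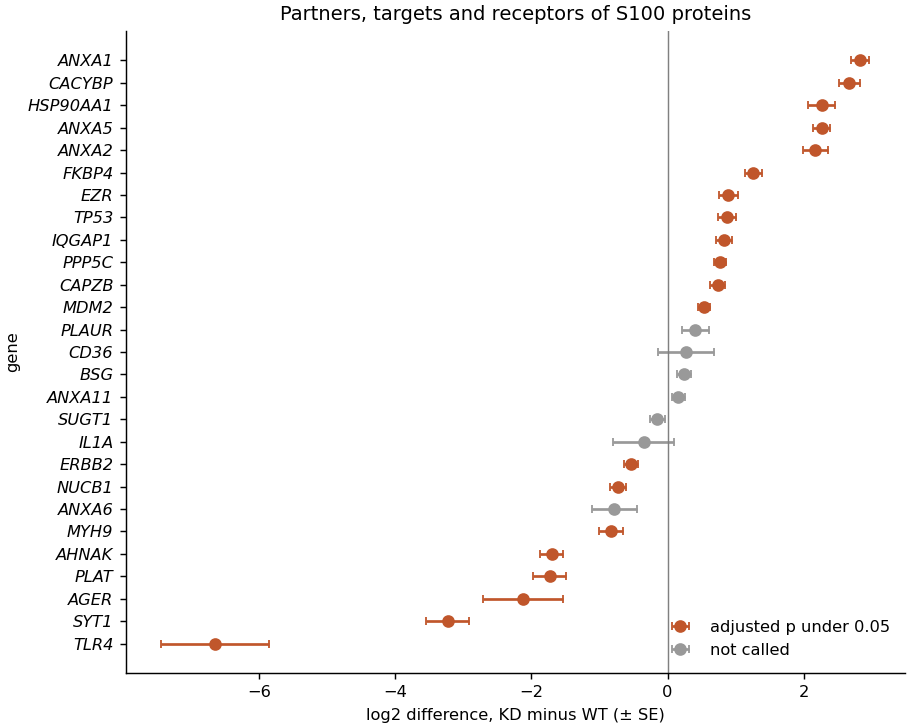
Log2 difference (KD minus WT, bars ± SE) of 27 tested partners, targets and receptors of S100 proteins, coloured where adjusted p was under 0.05 and grey where not. ANXA1 at 2.83 and CACYBP at 2.67 lie at the top, and SYT1 at -3.23 and TLR4 at -6.64 at the bottom, where the TLR4 value depends on the added 1 because KD had no read.

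Among 11724 protein-coding genes with a mean of at least 100 counts, those with a profile over the 4 libraries nearest to S100A4 were COQ5, ACTR6 and GTF2B, at distances of 0.0257, 0.0279 and 0.0305 on the centred log2 scale. Nearest to S100A9 were PABIR3, LIMD1 and CLBA1, at 0.0307, 0.0324 and 0.0393. With only 4 libraries such likeness is a description of these libraries.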

How the data were processed

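Total RNA was cleared of ribosomal RNA and made into strand-marked libraries, per the labels' protocols, and read in pairs of 150 bases. The tools named per the submitters' processing notes are featureCounts 2.0.6, STAR 2.7.11b and DESeq2, with the build hg38. Which annotation release, strand setting and treatment of shared reads applied is not given in the sources used. Each deposited value is a signal, a read count that the authors normalized, and 100% of them were whole multiples of 1 step per library to within 0.001 reads, so reads were recovered (42871815 to 56216398 in KD, 27868718 in WT). Among genes with 1 to 10 reads, 71.5% to 79.2% had an even number, as happens when mates are counted separately. Counting intervals (exact, 95%, conditional binomial) therefore used read pairs. They cover counting error only.

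The test was limma-trend 3.58.1 (R 4.3.3), two-sided, on log2(count + 1) for 23344 genes with a mean of at least 10, adjusted over all of them with a threshold of 0.05. Differences on this scale understate the change of low genes. The spread comes from the 3 KD libraries, and the lone WT library is assumed to vary like them. edgeR 4.0.16 and DESeq2 1.42.0 on recovered reads were alternatives, and the procedure was tested on simulated data. There all libraries shared the same profile and spread, and the changed genes only rose. The simulation therefore cannot speak to the choice of scaling or to a WT library that differs in its cells. Exonic lengths and positions came from GENCODE 29, which held 92.9% of the identifiers, and promoters from RefSeq (GRCh38.p14).

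The members and lists were chosen with earlier results of these data known. Named were all members and other S100 genes, listed partners called with at least a 2-fold difference, 8 fixed partners, 1q21 neighbours with a mean of at least 100, and the nearest profiles. Genes named beyond these, among them list markers, ANXA6, BSG, CD36, IL1A, FGF1, TCHH, RPTN and CRNN, were chosen after their values were seen, as were the promoter motifs. The promoter stretch of 1 member and 1 glial marker are not reported here.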

Additional observations from a re-analysis of the deposited data

How the results depend on the processing

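Under 13 alternatives (3 scalings, edgeR, DESeq2, 2 pseudocounts, 3 gene filters and leaving out each KD library), the same count of 7 members was higher in all. The number of members lower was 1, but 3 with equal library totals, 2 with edgeR, 2 with a pseudocount of 5, 2 with a mean of at least 50, 2 with protein-coding genes only, and 1 to 2 when a KD library was left out. S100A9 was lower in every setting. The member added in some settings was S100A8, joined by S100A13 with equal library totals. The adjusted p of S100A8 ran from 0.0130 (limma, equal library totals) to 0.197 (DESeq2) over the alternatives. Without KD 3, S100A8 was called (-1.26, adjusted p = 0.0357, limma), as was ANXA6 (-0.97, 0.0418), and without KD 1 or KD 2 S100A8 was not (0.120 and 0.116). S100A13 turned to 0.0022 with median-of-ratios scaling and to 0.0091 with DESeq2. Other S100 genes lower numbered 1, but 2 with equal library totals. Among partners, equal library totals turned ANXA11 to -0.41, MDM2 to -0.04, PLAUR to -0.15, CD36 to -0.29 and BSG to -0.32, and SUGT1 turned to 0.03 with median-of-ratios scaling and with DESeq2. The cause was not tested. Of 528 single-gene values, 490 kept direction and call. Over all genes, 7329 were higher and 8465 lower (edgeR 7973 and 8514), but 4746 and 12509 with equal library totals, so 46.4% of calls were higher against 27.5%, and 56.6% with DESeq2. Fewer genes tested gave 5086 lower with a mean of at least 50 and 3710 with protein-coding genes only. No paired analysis was possible because the WT library carries no set number. Depth limits S100A4, S100A8, S100A3, S100A5, S100A12, S100G, S100P and S100Z, each with under 100 reads in WT.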
